A study of Mus musculus and Homo sapiens with 24 samples.

Results

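The 49 genes described here carry fatty acids through activation, the carnitine shuttle and oxidation in mitochondria and peroxisomes, together with 2 transcriptional regulators and the genes that build the peroxisome. They were taken by name from the HepG2 count table, in which all 49 symbols were found among 28278 genes. Of these, 48 had a count above 5 in at least 1 library of every comparison and were tested. PEX7, the receptor that imports a small class of peroxisomal proteins, was at 0 in 10 of 12 libraries and had a summed count of 2, so it enters no comparison.

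HepG2 is a human hepatoma line that keeps many hepatocyte functions, and RNA was sequenced from 12 cultures of it in 4 groups of 3. The control group received neither agent, the CoCl2 group 50 μM cobalt chloride, the estrogen group 25 nM estradiol and the CoCl2+estrogen group both, with treatment for 4 h. Cobalt chloride stabilizes the hypoxia-inducible factor HIF1α in cells kept in normal oxygen, so it stands in for hypoxia without lowering oxygen. All 4 groups share one cell line, and per the study's methods the cells were kept in serum-free medium overnight before treatment.

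As background, a long-chain fatty acid is first joined to coenzyme A by an acyl-CoA synthetase. Long chains then enter mitochondria as carnitine esters and are shortened by repeated dehydrogenation, hydration, dehydrogenation and thiolysis, with electrons passed on by the electron transfer flavoprotein. Very long, branched and dicarboxylic chains are handled first in peroxisomes, whose oxidases release hydrogen peroxide that catalase removes. In liver many genes of both routes are targets of the nuclear receptor PPARα and its coactivator PGC-1α.

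Library totals ran from 13592637 to 21701480 counts, and the smallest count of a tested gene of the set in any library was 24, for PEX11A. Levels are in CPM, the counts of a gene relative to its library total after scaling by the trimmed mean of M values (TMM), and they are compared between groups for 1 gene and never between genes. A gene is called changed where its p from the quasi-likelihood test of edgeR, adjusted by Benjamini-Hochberg over all genes tested, did not exceed 0.05. Genes described culture by culture were mostly named for the size or the p of their change. Separate groups follow in part from that choice, wherever they are reported below. The share of all genes whose groups did not overlap is not given here. Each p tests a difference between groups against the spread between cultures, taken over the groups fitted and moderated across genes. The labels do not say whether the 3 cultures of a group were grown separately. CoCl2 replicate B stood apart from the other cultures of its group, and counts and main values of the set that rest on it are also given without it. Counts and values of genes outside the set, and correlations between comparisons, are given with it only. The 10 HepG2 markers, among them ALB, AFP and APOB, were all detected, with a summed level of 28102 to 30713 CPM in control and 30764 to 31490 CPM under CoCl2. In the estrogen group their sum was 15158 to 16674 CPM, and with both agents it was 16901 to 17646 CPM. All 10 were called lower with estradiol alone, beside 34.2% of all genes tested. The part of this shift in the results below was not tested. Of 10 markers of other cell types, 5 had no count in any of the 12 libraries (PTPRC, CD3E, COL3A1, DCN and KRT5). The 10 summed to 49.5 to 54.1 CPM in control and 17.9 to 19.7 CPM in the estrogen group, where COL1A1 (log2 fold change -4.18) and CD68 (-0.96) were called lower and PECAM1 (1.26) higher. The part of these genes in the results was not tested either. All 10 HIF1 target genes listed were called higher under CoCl2 alone, beside 1.31% of all genes tested, with a median log2 fold change of 1.53. With estradiol alone 4 of the 10 were called higher and 4 lower. Their sum was 335 to 346 CPM in control, 859 to 978 CPM under CoCl2 and 824 to 842 CPM in the estrogen group. The sum therefore does not set CoCl2 apart from estradiol. Of 10 estrogen receptor and target genes listed, 8 were tested with estradiol alone, and 1 was called higher and 3 lower. The shares of all genes tested were 34.7% and 34.2%, and the median log2 fold change of the 8 was -0.34.

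Estradiol alone was compared with control to ask how the hormone changed these genes without CoCl2. Of the 48 genes tested, 41 were called changed, 9 higher and 32 lower, where 68.9% of all 16281 genes tested were called, 34.7% higher and 34.2% lower. The median log2 fold change was -0.67 for the set and -0.00 for all genes tested. A called fall of more than 2-fold was seen for 17 of the 48 genes, and for 14.2% of all genes tested. A called rise of more than 2-fold was seen for 4, and for 15.1% of all genes tested. Activation genes rose for the most part, while peroxisomal enzymes fell without exception among the 12 tested.

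The 12 peroxisomal oxidation enzymes were all called lower in the estrogen group, beside 34.2% of all genes tested. Their median log2 fold change was -1.78, with a range from -3.25 to -0.27. EHHADH, the bifunctional enzyme that hydrates and dehydrogenates straight-chain and dicarboxylic acyl-CoAs, was at 69.7, 69.7 and 59.8 CPM in control and at 6.74, 6.91 and 7.26 CPM in estrogen cultures. Every treated culture lay far below every control culture, and the level fell to 10.5% of control (log2 fold change -3.25, SE 0.09, adjusted p = 3.76e-13). CAT, which encodes catalase, had 123, 137 and 122 CPM in control and 16.1, 14.4 and 15.5 CPM with estradiol. The groups were again well apart, with a log2 fold change of -3.05 (SE 0.08, adjusted p = 1.44e-13). PHYH, which starts the alpha-oxidation of phytanic acid, went from 14.0, 15 and 15.7 CPM to 3.51, 2.78 and 3.80 CPM, a log2 fold change of -2.14 (SE 0.14). ACAA1, the peroxisomal thiolase, went from 79.4, 80.2 and 79.4 CPM to 19.8, 21.2 and 17.2 CPM, a log2 fold change of -2.04 (SE 0.08). For both genes the highest treated culture was well under the lowest control culture.

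HSD17B4, the multifunctional enzyme for branched chains and bile acid precursors, fell by 1.93 on the log2 scale. AMACR, the racemase that prepares branched chains for oxidation, fell by 1.84, and the branched-chain oxidase ACOX2 fell by 1.72. AMACR shares a locus with the readthrough gene C1QTNF3-AMACR, which had 15 to 58 counts per library beside 56 to 455 for AMACR, so its value is uncertain to that extent. DECR2, a reductase for unsaturated chains, fell by 1.48. Smaller falls were called for the isomerase ECI2 (-0.89), the oxidase ACOX3 (-0.82), the thiolase and sterol carrier SCP2 (-0.53) and the alpha-oxidation lyase HACL1 (-0.27). HACL1 had 11.7, 12.6 and 11.9 CPM in control and 9.91, 9.69 and 10.4 CPM with estradiol, and its adjusted p of 0.0382 was the one among the 12 closest to the threshold. That call was lost without control replicate A (adjusted p = 0.0591) or B (0.109), without estrogen replicate A (0.0675) or B (0.0765), and under DESeq2 (0.132). EHHADH has an antisense gene, EHHADH-AS1, which had a count of 0 in every library.

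**Figure D1:**
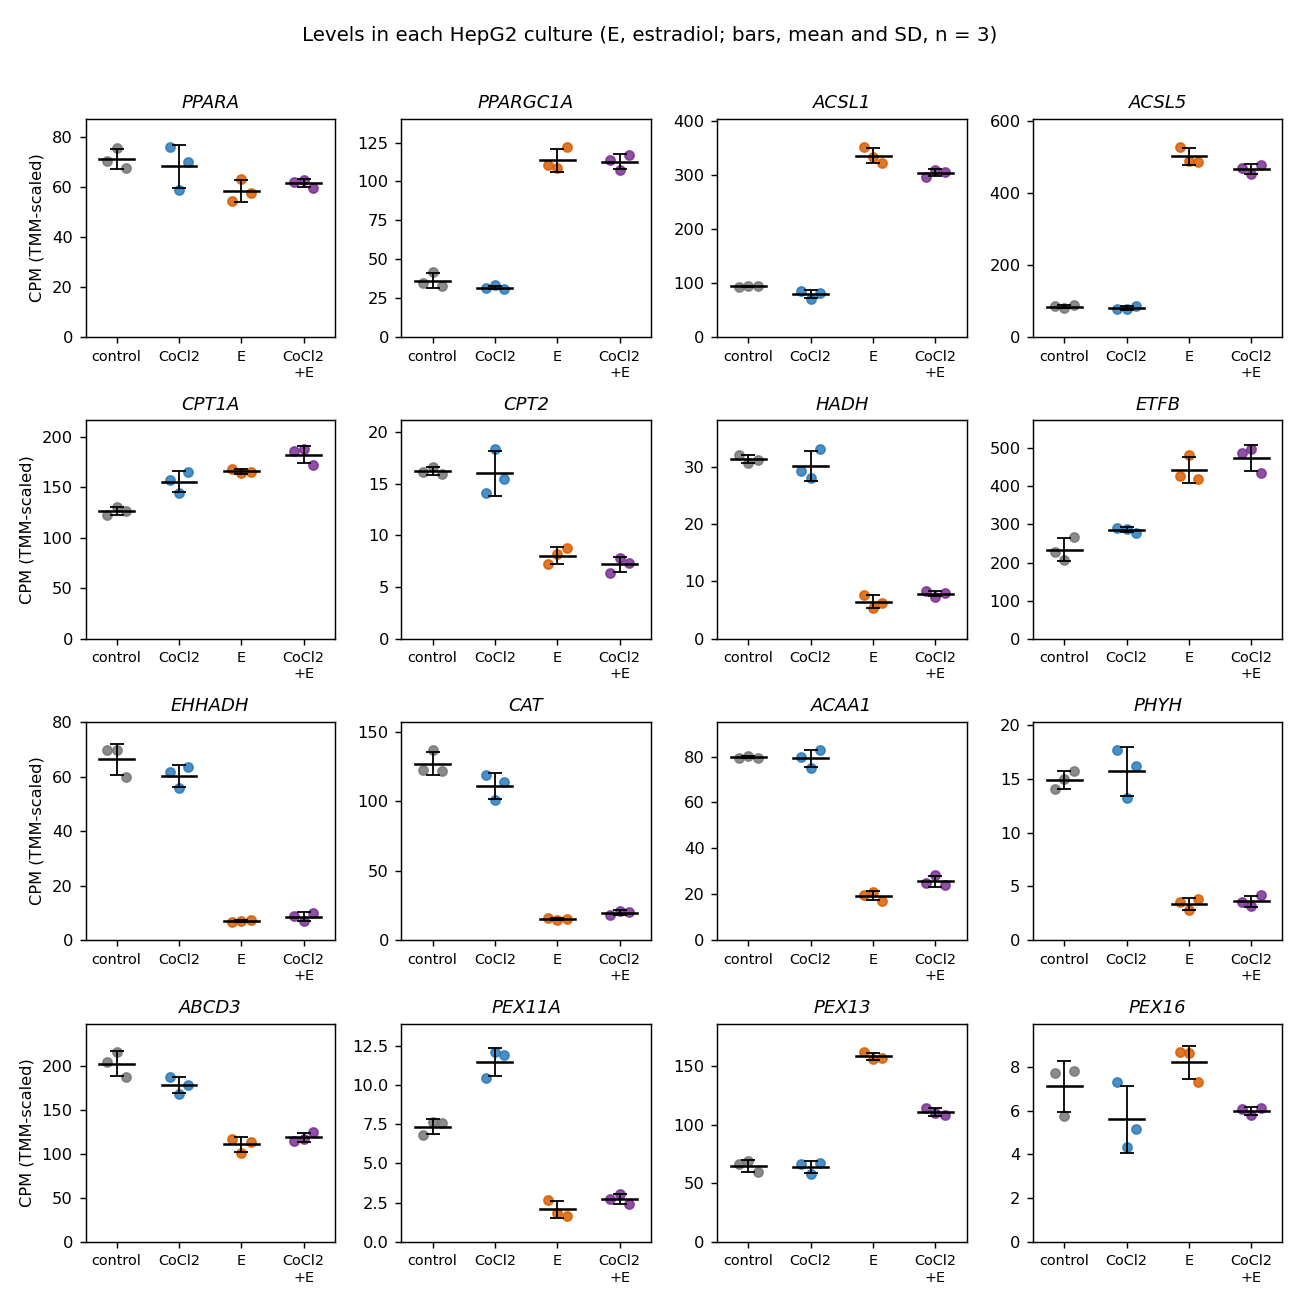
Levels of 16 genes of the set in each HepG2 culture. Each point is 1 culture, in TMM-scaled CPM on a linear axis from 0, and black lines are the mean and SD of the 3 cultures of a group (control, CoCl2, E for estradiol, CoCl2+E for both). In EHHADH, CAT, ACAA1 and PHYH every culture with estradiol lies below every culture without it, in ACSL5 and ACSL1 every one lies above, and PEX11A is highest in the 3 CoCl2 cultures, from 10.5 to 12.1 CPM.

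The genes that build the peroxisome moved less evenly than the enzymes inside it. Of the 10 tested, 2 were called higher and 6 lower in estrogen cultures, beside 34.7% and 34.2% of all genes tested. The median log2 fold change of the 10 was -0.40. PEX13, a membrane protein of the docking complex for imported enzymes, rose from 66.6, 68.7 and 59.2 CPM to 162, 156 and 157 CPM (log2 fold change 1.29, SE 0.07, adjusted p = 2.95e-10). PEX11A, which promotes the division and proliferation of peroxisomes, went the other way, from 6.79, 7.65 and 7.60 CPM to 2.67, 1.85 and 1.66 CPM (log2 fold change -1.81, SE 0.19, adjusted p = 5.24e-07). Neither gene's groups overlapped, but both genes were named as the largest called changes of their role. ABCD3, the transporter that brings long-chain acyl-CoAs into the peroxisome and is an abundant membrane protein there, had 204, 216 and 187 CPM in control and 117, 101 and 114 CPM with estradiol, a log2 fold change of -0.87 (SE 0.07).

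The partner of PEX13 in docking, PEX14, fell by 0.51 on the log2 scale. The ubiquitin ligase subunit PEX2 fell by 0.81, and PEX19 and PEX3, which insert membrane proteins, fell by 0.43 and 0.36. PEX6, an ATPase that recycles the import receptor, was called higher (log2 fold change 0.44, adjusted p = 0.0229), though its cultures overlapped, at 9.93, 7.37 and 9.84 CPM in control and 13, 14.2 and 9.47 CPM with estradiol. That call was lost without control replicate B (adjusted p = 0.0937), estrogen replicate A (0.103) or estrogen replicate B (0.123). PEX5, the main import receptor, and PEX16, which acts with PEX3, did not pass the test.

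Among the 4 acyl-CoA synthetases, 3 were called higher and 1 lower in estrogen cultures, beside 34.7% and 34.2% of all genes tested. ACSL5, which activates long-chain fatty acids at mitochondria and the endoplasmic reticulum, rose from 86.0, 80.2 and 87.5 CPM to 528, 491 and 488 CPM, the largest rise in the set (log2 fold change 2.57, SE 0.06, adjusted p = 9.22e-14). ACSL1, the major liver synthetase, rose from 92.6, 94.4 and 94.2 CPM to 351, 333 and 322 CPM (log2 fold change 1.84, SE 0.06). ACSL3, found on lipid droplets and the endoplasmic reticulum, rose from 170, 194 and 162 CPM to 317, 273 and 307 CPM (log2 fold change 0.77, SE 0.08). For these 3 genes no estrogen culture overlapped a control culture, but they were named as the largest called changes of their role. ACSL4, which prefers arachidonic acid, fell by 0.40 on the log2 scale.

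The carnitine shuttle split at its first step. CPT1A, the outer-membrane transferase that controls entry into mitochondria, was at 123, 130 and 126 CPM in control and 168, 164 and 165 CPM with estradiol (log2 fold change 0.39, SE 0.06, adjusted p = 2.92e-05). The 4 other genes of the shuttle fell to about the same degree, with log2 fold changes from -1.08 to -1.0. SLC25A20, the carrier across the inner membrane, had 15.4, 16.8 and 12.4 CPM in control and 7.85, 6.70 and 6.43 CPM with estradiol. CPT2, which returns the chain to coenzyme A inside, had 16.1, 16.7 and 15.9 CPM in control and 7.18, 8.20 and 8.78 CPM with estradiol. CROT, which exports shortened chains from peroxisomes as carnitine esters, had 13.4, 12.9 and 12.5 CPM in control and 6.46, 6.49 and 5.53 CPM with estradiol. In all 3 genes, named as the largest called changes of their role, the treated cultures lay below the control cultures. CRAT, the acetyltransferase, did the same.

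Of 12 mitochondrial β-oxidation enzymes, 8 were called lower and 1 higher, beside 34.2% and 34.7% of all genes tested. The other 3 did not pass the test, and the median log2 fold change of the 12 was -0.88. HADH, the dehydrogenase for short and medium hydroxyacyl chains, fell from 32.1, 30.7 and 31.2 CPM to 7.63, 5.42 and 6.29 CPM (log2 fold change -2.27, SE 0.12, adjusted p = 2.19e-10). ACADS, the short-chain acyl-CoA dehydrogenase, fell from 15.6, 12.4 and 17.3 CPM to 4.73, 4.35 and 3.80 CPM (log2 fold change -1.80, SE 0.15). ACADSB, the short branched-chain dehydrogenase of isoleucine breakdown, fell from 177, 204 and 159 CPM to 52.7, 53.6 and 56.2 CPM (log2 fold change -1.73, SE 0.09). HADH, ACADS and ACADSB did not overlap between groups, but they were named as the largest called changes of their role.

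DECR1, the mitochondrial reductase for unsaturated chains, fell by 1.72 on the log2 scale. ACAA2 and ACAT1, both thiolases, fell by 0.96 and 0.86, and the hydratase ECHS1 fell by 0.90. The long-chain enzymes moved little. HADHB, the β subunit of the trifunctional protein that shortens long chains, fell by 0.30, while its partner HADHA had a log2 fold change of 0.08 (95% interval -0.05 to 0.21) and did not pass the test. ACADVL, the very-long-chain dehydrogenase, was called higher by 0.22, a call lost without estrogen replicate B (adjusted p = 0.0552) and with library totals in place of TMM (0.228). The medium-chain dehydrogenase ACADM and the isomerase ECI1 did not pass the test. Of the electron transfer flavoprotein genes, ETFB rose from 227, 207 and 267 CPM to 426, 482 and 421 CPM (log2 fold change 0.92, SE 0.08, adjusted p = 1.16e-07), while its partner subunit ETFA had a log2 fold change of -0.05 and the oxidoreductase ETFDH one of -0.20, neither past the test.

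The regulators moved in opposite directions. PPARGC1A, the gene of PGC-1α, rose from 34.5, 41.5 and 32.5 CPM to 110, 108 and 122 CPM (log2 fold change 1.65, SE 0.09, adjusted p = 2.55e-10). PPARA was at 70.4, 75.6 and 67.7 CPM in control and at 54.5, 63.3 and 57.4 CPM in estrogen cultures, which fell by 0.29 on the log2 scale (SE 0.07, adjusted p = 0.00282) with no overlap between groups. Among 15 other regulators of these pathways, listed by name, 11 were called higher and 2 lower, beside 34.7% and 34.2% of all genes tested, and the median log2 fold change was 0.83.

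**Figure D2:**
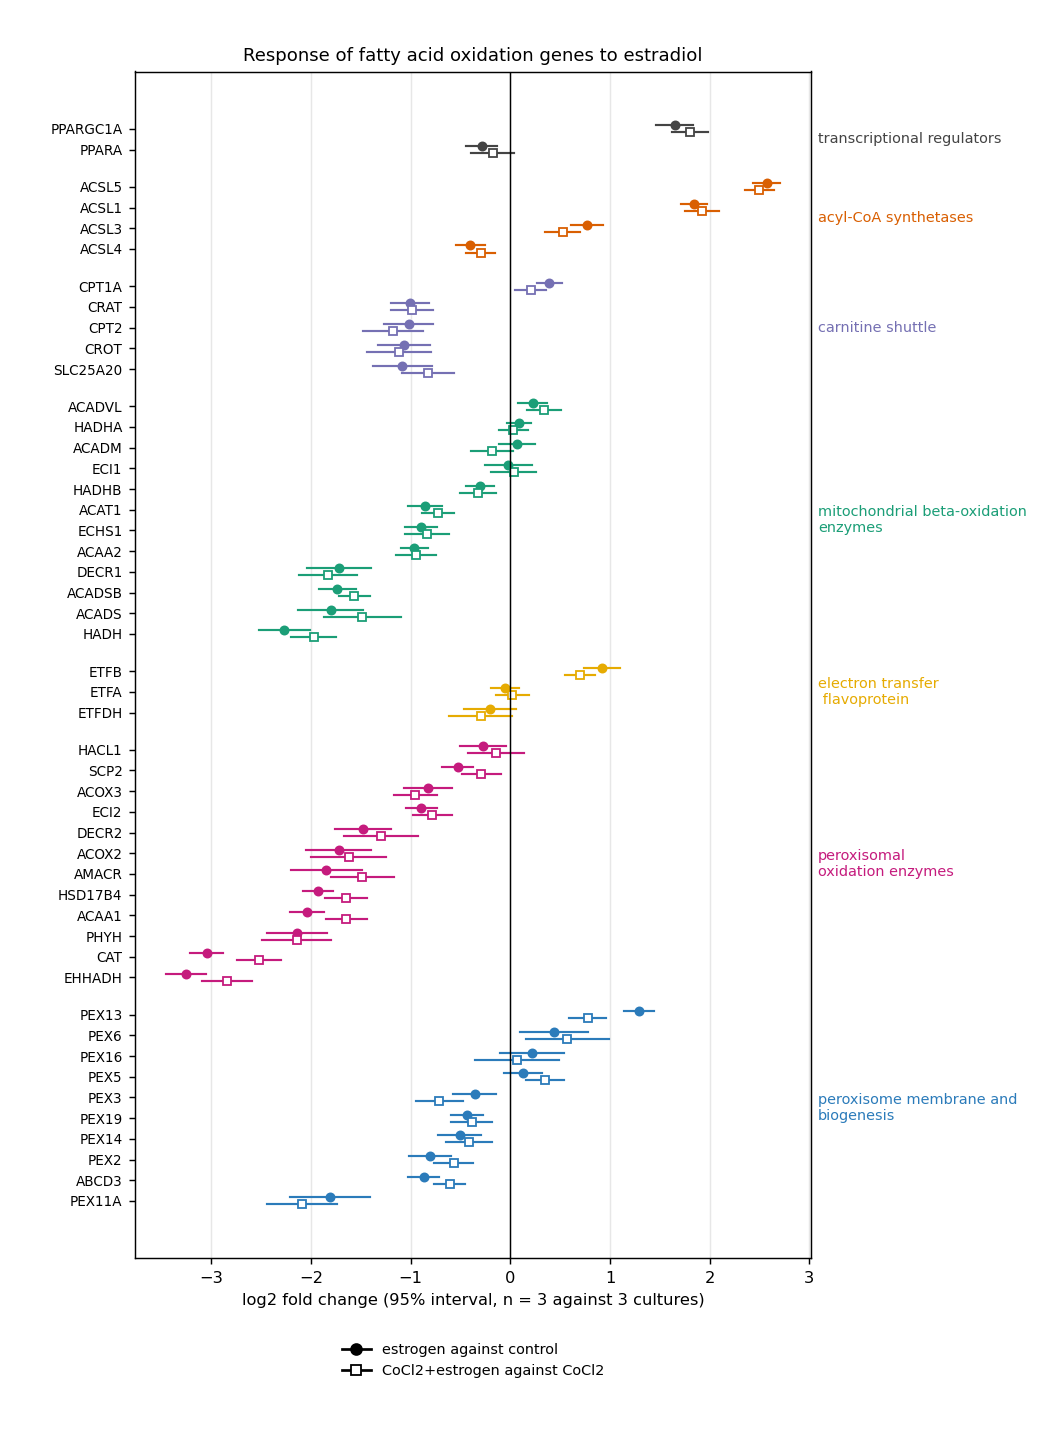
Log2 fold changes of the 48 tested genes with estradiol, by role. Filled circles compare estrogen with control and open squares compare CoCl2+estrogen with CoCl2, bars are 95% intervals from edgeR (3 against 3 cultures), and the vertical line marks no change. All 12 peroxisomal oxidation enzymes lie left of the line in both comparisons, and the largest values are EHHADH at -3.25 and ACSL5 at 2.57, both for estrogen against control.

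Weighed by counts, the roles shifted against each other. These shares are of unscaled library totals, and the TMM factors were 1.05 to 1.06 in control and 0.96 to 0.97 in the estrogen cultures. All 49 genes took 0.377% ± 0.00726 (SD, n = 3) of counts in control and 0.367% ± 0.00853 (SD, n = 3) in estrogen cultures. The peroxisomal oxidation enzymes went from 0.0626% ± 0.00140 (SD, n = 3) to 0.0178% ± 0.000171 (SD, n = 3), which is 28.4% of the control share. The mitochondrial β-oxidation enzymes went to 67.9% of their control share. The acyl-CoA synthetases went to 164% of theirs and the electron transfer flavoprotein genes to 145%, the latter through ETFB alone among genes called. Fewer cells with the RNA and less RNA per cell cannot be told apart in bulk cultures.

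**Figure D3:**
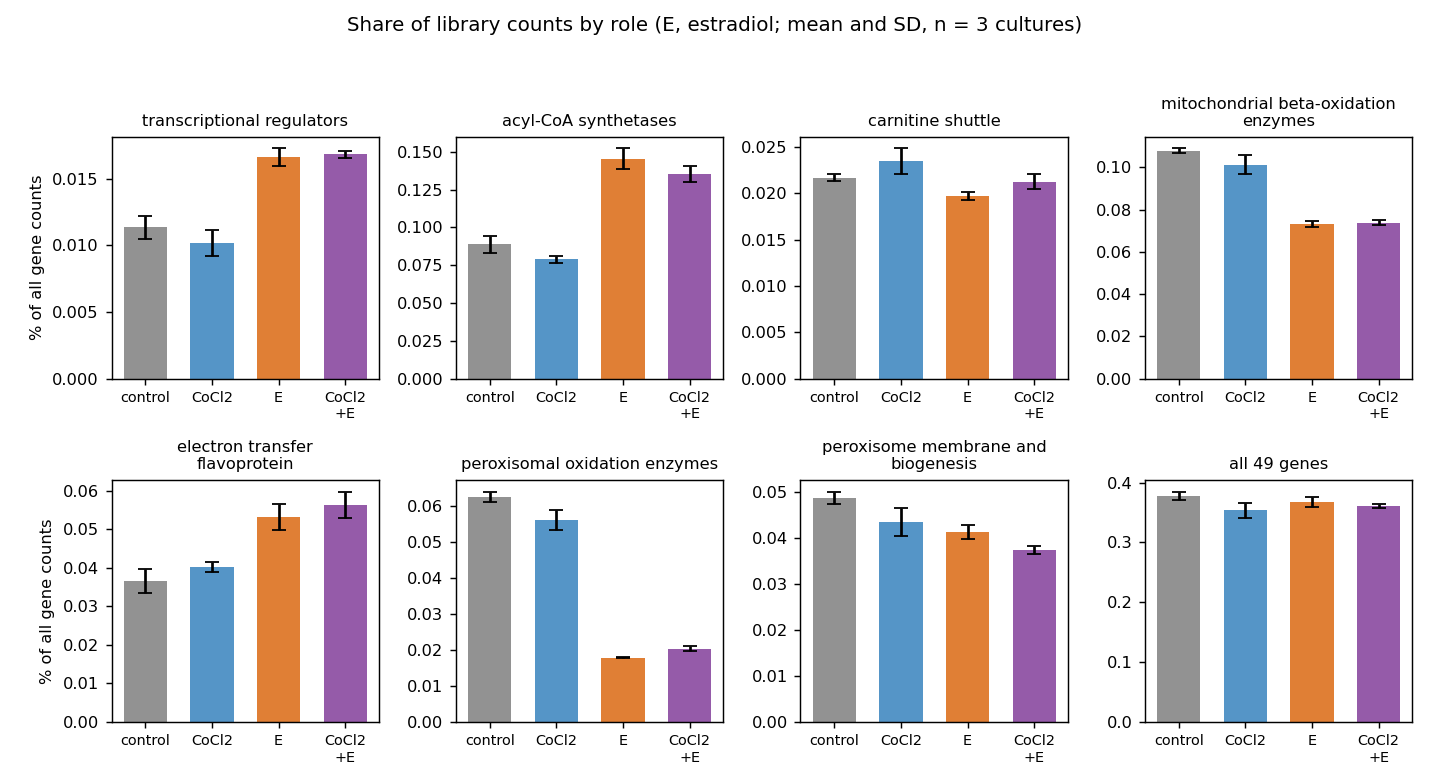
Percent of all gene counts taken by each role and by all 49 genes. Bars are means and lines the SD of 3 cultures, on linear axes from 0 that differ in scale between panels (E, estradiol). The peroxisomal oxidation enzymes drop from 0.0626% in control to 0.0178% with estradiol, the acyl-CoA synthetases rise from 0.0888% to 0.145%, and the sum over all genes stays between 0.354% and 0.377%.

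The effect of estradiol was measured a second time in cells that also received CoCl2, in cultures that the first comparison did not use. Here 40 of 48 genes were called, 10 higher and 30 lower, where 60.9% of all 16200 genes tested were called, 30.1% higher and 30.8% lower. Without CoCl2 replicate B the count was also 40, beside 9973 of all 16110 genes tested, with EHHADH at -2.89, ACSL5 at 2.48 and PPARGC1A at 1.84. The median log2 fold change was -0.59 for the set. Across the 48 genes, Pearson's r between the log2 fold changes of the comparisons was 0.986 and Spearman's rho 0.983, given as a description since genes are not replicates, and r was 0.888 over the 15800 genes tested in both. Of the set, 39 genes passed the test both times, and the sign of each of the 39 was the same. Over the 15800 genes tested in both, 8891 passed both times, 8853 of them with the same sign. HACL1 and PPARA were called only without CoCl2 and PEX5 only with it, and the interaction test was not passed by any of these 3. EHHADH had 61.6, 55.9 and 63.6 CPM under CoCl2 and 8.98, 6.89 and 9.96 CPM with both agents (log2 fold change -2.84, SE 0.12). ACSL5 had 78.2, 78.7 and 87.2 CPM under CoCl2 and 470, 452 and 478 CPM with both agents (log2 fold change 2.50, SE 0.07). PPARGC1A had 31.2, 33.1 and 30.9 CPM under CoCl2 and 114, 107 and 117 CPM with both (log2 fold change 1.80, SE 0.08). The cultures with both agents were thus separate from the CoCl2 cultures for each of these genes. PPARA had 75.9, 58.9 and 69.9 CPM under CoCl2 and 62.0, 62.6 and 59.7 CPM with both, which overlapped (log2 fold change -0.18, adjusted p = 0.142). Without CoCl2 replicate B, the lowest of its group, PPARA passed the test at -0.27 (adjusted p = 0.00602). The calls on CPT1A (0.20, adjusted p = 0.0253), PEX6 and SCP2 were lost without CoCl2+estrogen replicate B (adjusted p = 0.102, 0.0758 and 0.0734), and that on CPT1A also without CoCl2+estrogen replicate A (0.0951) or CoCl2 replicate B (0.0688).

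The cultures with both agents were also set against control, a comparison that shares its control cultures with the first. Of 48 genes, 39 were called, 8 higher and 31 lower, where 65.4% of all 16201 genes tested were called, 32.3% higher and 33.2% lower, and the median log2 fold change of the set was -0.64. EHHADH was at -2.98 here beside -3.25 with estradiol alone, CAT at -2.72 beside -3.05, ACAA1 at -1.66 beside -2.04, ACSL5 at 2.43 beside 2.57 and PEX13 at 0.74 beside 1.29. ACADVL, called at 0.17, lost its call without control replicate A (adjusted p = 0.0671) or B (0.116) and without CoCl2+estrogen replicate A (0.0740) or B (0.174). The peroxisomal oxidation enzymes took 0.0203% of counts, or 32.4% of the control share.

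CoCl2 alone was compared with control to ask what chemical hypoxia did without the hormone. Of the 48 genes, 1 was called, where 1.44% of all 15872 genes tested were called, 1.31% higher and 0.132% lower, and the median log2 fold change was -0.05 for the set. That gene was PEX11A, at 6.79, 7.65 and 7.60 CPM in control and 10.5, 12.1 and 11.9 CPM under CoCl2 (log2 fold change 0.65, SE 0.13, 95% interval 0.37 to 0.93, adjusted p = 0.0285). All 3 CoCl2 cultures were above all 3 control cultures. The call was lost without control replicate A (adjusted p = 0.197), B (0.0896) or C (0.0824) and without CoCl2 replicate C (0.146), with the log2 fold change between 0.59 and 0.68. Before adjustment 9 genes of the set, or 18.8%, had a p under 0.05, beside 11.3% of all genes tested, and DESeq2 called 3, PEX11A, CPT1A and ETFB. Over all 15872 genes tested DESeq2 called 345. Without CoCl2 replicate B, 2 genes of the set were called, beside 232 of all 15781 genes tested, with PEX11A at 0.60 (adjusted p = 0.0461). CPT1A was next to the threshold, at 123, 130 and 126 CPM in control and 157, 144 and 165 CPM under CoCl2 (log2 fold change 0.31, SE 0.07, adjusted p = 0.0602). Its groups did not overlap, and it was called by DESeq2 and in the fit without CoCl2 replicate B (adjusted p = 0.0279). PEX3 had 22.6, 20.3 and 20.9 CPM in control and 26.2, 26.8 and 24.8 CPM under CoCl2, a log2 fold change of 0.29 that did not pass (adjusted p = 0.164), nor did it without CoCl2 replicate B (0.26, adjusted p = 0.404). None of the 12 peroxisomal oxidation enzymes passed, with log2 fold changes from -0.22 to 0.09, and EHHADH was at -0.13. Without CoCl2 replicate B none of them passed either, with a range from -0.29 to 0.18.

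CoCl2 was tested again in cells that received estradiol. Of the 48 genes, 4 were called, 2 higher and 2 lower, where 17.0% of all 15925 genes tested were called, 8.14% higher and 8.85% lower. ACAA1 was at 19.8, 21.2 and 17.2 CPM with estradiol alone and 24.9, 28.4 and 23.9 CPM with both agents (log2 fold change 0.42, SE 0.10, adjusted p = 0.00869). CAT was at 16.1, 14.4 and 15.5 CPM and then 17.8, 20.8 and 20.5 CPM (log2 fold change 0.37, SE 0.10, adjusted p = 0.0194). Both peroxisomal enzymes were therefore somewhat higher with both agents than with the hormone alone, with no overlap, and still well under control. PEX13 went from 162, 156 and 157 CPM to 114, 110 and 108 CPM (log2 fold change -0.51, SE 0.06, adjusted p = 7.01e-06). PEX16 went from 8.69, 8.62 and 7.33 CPM to 6.05, 5.80 and 6.12 CPM (log2 fold change -0.45, SE 0.14, adjusted p = 0.0321). Neither of these groups overlapped. The call on CAT was lost without estrogen replicate B (adjusted p = 0.0806) and without CoCl2+estrogen replicate B (0.0656) or C (0.0661). That on PEX16 was lost in 5 of the 6 fits that left out 1 culture, all but the one without estrogen replicate C, and under DESeq2 (adjusted p = 0.0825). Without estrogen replicate B, or without CoCl2+estrogen replicate C, 2 of the 48 genes were called. Over all genes the calls were then 2147 of 15843 and 2227 of 15852 tested. The 2 CoCl2 comparisons share no cultures, and across the 48 genes Pearson's r between them was 0.280, with 24 genes of the same sign and none called in both. Over the 15116 genes tested in both, r was 0.139, with 53.5% of the same sign and 120 called in both.

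**Figure D4:**
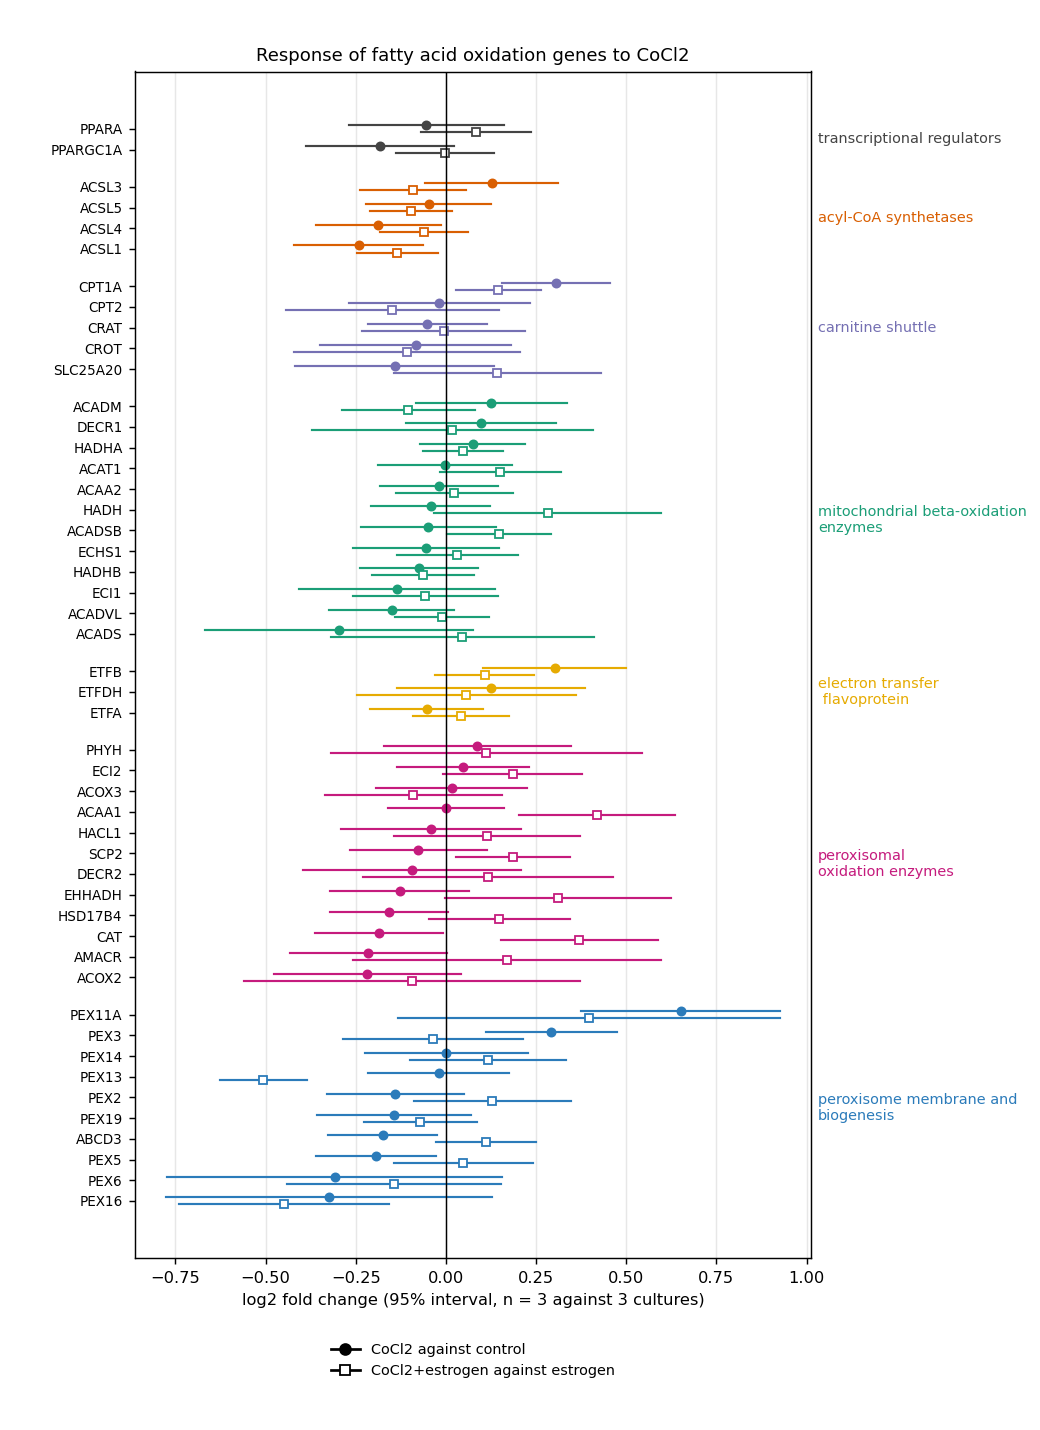
Log2 fold changes of the 48 tested genes with CoCl2, by role. Filled circles compare CoCl2 with control and open squares CoCl2+estrogen with estrogen, and bars are 95% intervals from edgeR (3 against 3 cultures). Most intervals span 0, PEX11A stands highest at 0.65 without estradiol, and PEX13 stands lowest at -0.51 with it.

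Whether the response to estradiol differed with CoCl2 was tested directly as an interaction over all 12 cultures. It was called for 2 of the 48 genes, where 5.80% of all 16681 genes tested were called, 2.10% with a positive and 3.70% with a negative interaction. For CAT the interaction was 0.55 on the log2 scale (SE 0.12, adjusted p = 0.00897), the fall with estradiol being -3.05 without CoCl2 and -2.52 with it. For PEX13 it was -0.49 (SE 0.10, adjusted p = 0.00437), the rise being 1.29 without CoCl2 and 0.78 with it. In both genes the response was smaller in the presence of CoCl2. Without CoCl2 replicate B the interaction was 0.48 for CAT and -0.56 for PEX13, both still called. ACAA1 had an interaction of 0.42 that just missed the threshold (adjusted p = 0.0517) and was called by DESeq2, and without CoCl2 replicate B it was 0.37 (adjusted p = 0.0697). The interaction was positive for 11 of the 12 peroxisomal oxidation enzymes (median 0.24), beside 51.8% of all genes tested, and only CAT of the 12 was called. Without CoCl2 replicate B it was positive for 10 of the 12, with ACOX3 and PHYH negative, and the median was 0.21. All 12 had fallen with estradiol alone and were measured in the same cultures, so their signs are not separate results. The genes tested include many that rose with estradiol, so 51.8% is not a matched share.

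Genes of the same and related pathways outside the set were counted from lists written by name. Of 21 other peroxisome genes tested with estradiol alone, 13 were called lower and 4 higher, beside 34.2% and 34.7% of all genes tested, with a median log2 fold change of -0.47. IDH1, the cytosolic and peroxisomal isocitrate dehydrogenase, fell by 1.61 on the log2 scale and the reductase PECR by 1.74. PEX11G had the largest called change of the list, a rise from 0 CPM in control to between 0.207 and 0.612 CPM. These are too few counts for a firm fold. Of 20 other mitochondrial oxidation genes tested, 16 were called lower and 2 higher, beside the same shares of all genes, with a median of -0.83. That list also holds genes of branched-chain amino acid and propionate breakdown, so its count is not one of fatty acid oxidation genes alone. ACAD9, an acyl-CoA dehydrogenase that also assembles complex I, fell from 29.8, 29.6 and 29.6 CPM to 6.57, 7.77 and 6.15 CPM. ACACB, whose product malonyl-CoA restrains CPT1A, fell from 28.3, 28.7 and 27.0 CPM to 5.01, 5.56 and 6.70 CPM. In both the estrogen cultures were far below the control cultures, with log2 fold changes of -2.12 and -2.29. Under CoCl2 alone 0 of 20 and 0 of 20 genes tested were called, where 1.44% of all genes were, a share that leaves fewer than 1 call for a list of this size.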

How the data were processed

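RNA-Seq of HepG2 cells was analysed from 12 cultures, which the sample labels divide into control, CoCl2, estrogen and CoCl2+estrogen with 3 each. The authors made stranded libraries depleted of ribosomal RNA, and the submitters' processing notes name Bowtie2 2.2.5, STAR 2.7.8a and Partek with the human build hg38 beside a mouse build. The strand setting of the counting is not given in the sources used here. The values the authors deposited are unscaled estimated counts, 1 per gene and library, and 23.8% of them are not whole numbers. The table held 28278 genes, 7034 of them with no count.

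After rounding, edgeR 4.0.16 was run in R 4.3.3. Each comparison was fitted on the 6 libraries of its groups, the interaction on all 12, with TMM scaling, on genes that exceeded a count of 5 in 1 or more of its libraries. Genes were called by the quasi-likelihood test where p, adjusted by Benjamini-Hochberg, was at most 0.05. CPM levels were scaled over all 12 libraries together. In simulated counts with 200 genes changed by 2 on the log2 scale, the test recovered between 96.5% and 99% of them over the 6 comparisons, and between 3.48% and 11.8% of its calls were false. No other gene was changed there, whereas 68.9% of all genes tested were called in the data with estradiol alone. The simulated rates therefore do not describe comparisons with so many changed genes. Alternatives were DESeq2 1.42.0, other scalings, other filters, one fit of all 12 libraries, the replicate letter as a block, and each library left out.

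The genes and the pathway lists were chosen with earlier results of these data known. Genes named with all their values were both regulators, up to 3 of each role with the largest called change with estradiol, those called in the CoCl2 comparisons or the interaction, and the 3 with the smallest p under CoCl2. Of each other list, up to 3 genes with the largest called change were named, and others were chosen after their values were seen. The replicate letters were not treated as pairs, since the deviations of same-lettered cultures from their group means had correlations from -0.33 to 0.32. Those of cultures with different letters ran from -0.40 to 0.33. Some genes of the lists are not reported here. Human sequences were not used here, and the mouse livers and plasma of the study were not analysed here.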

Additional observations from a re-analysis of the deposited data

Results flagged for a closer look

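The response of 2 genes of the set to estradiol differed between cells with and without CoCl2 by edgeR's interaction test. CAT differed by 0.55 on the log2 scale and PEX13 by -0.49, each with the smaller response in the presence of CoCl2.

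Among the related regulators and PPARα targets outside the set, 8 passed the same test, which 5.80% of all genes tested passed. Of the 15 regulators tested, 1 was called with a positive and 4 with a negative interaction. Of the 13 PPARα targets tested, 3 were called, all with a negative interaction. The shares of all genes tested were 2.10% positive and 3.70% negative. TXNIP, a regulator of glucose uptake and redox state, rose with estradiol by 3.01 on the log2 scale without CoCl2 and by 2.33 with it, an interaction of -0.66. LPIN1, a phosphatidate phosphatase and coactivator of PPARα, had an interaction of -0.59. SIRT1, a deacetylase that acts on PGC-1α, had an interaction of -0.66. ANGPTL4, a lipase inhibitor, had one of -1.25 and the lipid droplet gene PLIN2 one of -0.63. The transcription factors NRF1 and HNF4A had interactions of -0.47 and -0.41, and the coactivator PPARGC1B, a relative of PGC-1α, had one of 1.49. Of the 10 HIF1 target genes, 7 were called with a negative interaction, beside 3.70% of all genes tested. With 3 cultures per group, no test for a single outlying culture was made.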

How the results depend on the processing

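The cause of each shift below was not tested. Of the genes called, 38 of 41 kept their call with estradiol alone under 8 settings and 6 left-out cultures (all but ACADVL, HACL1 and PEX6), 38 of 39 with both agents against control (all but ACADVL), 37 of 40 with estradiol under CoCl2 (all but CPT1A, PEX6 and SCP2), and both of the interaction, and no called gene changed sign. Under CoCl2 alone, where 1 gene was called, DESeq2 called 3, and no filter, filterByExpr, one fit of all libraries and the replicate block called 2 each, and leaving out 1 culture gave 0 to 2 (0 without control replicate A, control replicate B or CoCl2 replicate C, 2 without CoCl2 replicate B). Over all genes tested the main fit called 229 and DESeq2 345. No filter called 318, filterByExpr 241, one fit 359 and the replicate block 327, and leaving out 1 culture gave 136 to 249. For CoCl2 with estradiol the replicate block called 7 in place of 4, adding ACSL1, CPT1A and SCP2, and leaving out 1 culture gave 2 to 4. Over all genes tested the block called 3791 in place of 2706, and leaving out 1 culture gave 1671 to 2493. The replicate letters paired the cultures poorly, with 5 of 18 same-letter pairs above a correlation of 0.1, beside 12 of 36 pairs of different letters. The median of the set with estradiol alone was -0.74 under upper-quartile scaling, -0.80 with library totals alone, -0.82 with no filter (which adds PEX7) and -0.69 to -0.63 with 1 culture left out. With both agents against control it was -0.73 with library totals, -0.72 with no filter and -0.66 to -0.60 with 1 left out. With library totals it was -0.11 for CoCl2 alone, -0.64 for estradiol under CoCl2 and 0.16 for the interaction, which ran from 0.036 to 0.13 with 1 culture left out. Library totals also moved the median of all genes to -0.13 with estradiol. PEX16 under estradiol with CoCl2, not called, was at 0.06 and ran from -0.072 (without CoCl2 replicate B) to 0.30 (without CoCl2 replicate A) with 1 culture left out. The counts limit PEX7, at 0 in most libraries, and widen the interval of PEX11A.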

Other observations

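Some genes that make, move or use ketone bodies, the main export product of liver fatty acid oxidation, are given by their values with estradiol alone, where 34.2% of all genes tested were called lower and 34.7% higher. BDH2, a cytosolic dehydrogenase of the group, fell from 7.94, 7.83 and 7.83 CPM to 2.17, 2.42 and 2.42 CPM, and OXCT1, which uses ketone bodies, from 7.06, 5.44 and 5.58 CPM to 1.73, 2.92 and 2.83 CPM. Both were separate between groups, with log2 fold changes of -1.75 and -1.29. SLC16A1, a transporter of ketone bodies and lactate, was called higher, from 260, 251 and 233 CPM to 292, 269 and 266 CPM (log2 fold change 0.16).

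Of 13 other targets of PPARα tested with estradiol alone, 5 were called higher and 6 lower, beside 34.7% and 34.2% of all genes tested. The fatty acid transporter gene CD36 went from 8.88, 10.0 and 7.54 CPM to 1.5, 0.926 and 2.07 CPM, while the lipid droplet gene PLIN2 went from 183, 175 and 174 CPM to 444, 439 and 406 CPM. PLIN2 was also called higher under CoCl2 alone, at 400, 328 and 361 CPM (log2 fold change 1.04), as was the lipase inhibitor gene ANGPTL4, from 1.93, 1.61 and 1.78 CPM to 5.90, 4.62 and 7.0 CPM (log2 fold change 1.73). These 2 were the only genes of the 13 called under CoCl2, where 1.31% of all genes tested were called higher. In both genes all CoCl2 cultures were above all control cultures. PDK4, which spares glucose when fatty acids are burned, was at 0.0523, 0.230 and 0.115 CPM in control and 2.56, 1.35 and 1.94 CPM with estradiol, too few counts in control for a firm fold. Among the other regulators, the mitochondrial deacetylase gene SIRT3 fell from 14.6, 14.6 and 14.4 CPM to 4.96, 4.42 and 5.32 CPM, and the estrogen-related receptor gene ESRRA rose from 21.4, 23.1 and 23.5 CPM to 59.4, 62.8 and 49.7 CPM.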
